A study of Bos taurus with 6 samples.

Results

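The 10 genes described here make, break down or regulate the polyamines putrescine, spermidine and spermine: ODC1, OAZ1, OAZ2, AZIN1, AMD1, SRM, SMS, SAT1, SMOX and PAOX. They were found by gene symbol in the array's annotation, in which 9 of the 10 had a named probe and OAZ2 had none, so OAZ2 was not analysed here. The 9 genes had 15 of the 43794 probes. Of these, 13 probes lay above background and gave 8 of the 9014 genes whose representative (brightest) probe did. The gene set was chosen by pathway with the ratios of these arrays between aged and young cows already known, that of OAZ1 among them, so the members' ratios are given as a description, with no test.

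RNA was measured in granulosa cells, the hormone-producing cells that line the ovarian follicle, from the dominant preovulatory follicle of 6 Hereford cattle. The 3 aged animals were multiparous cows, labelled Old and numbered 13, 110 and 126. The 3 young animals were nulliparous heifers, numbered 11, 7 and 184. All 6 received the same treatment: injections of 25 mg prostaglandin F2 alpha, then 25 mg luteinizing hormone (LH) on day 6 after ovulation, with collection on day 7, 24 h later, so no animal without LH was measured. The animals' ages in years are not analysed here. Each 2-colour array held 1 aged and 1 young animal, in the pairs 13 with 11, 110 with 7 and 126 with 184, and each pair was hybridised on 2 arrays with Cy3 and Cy5 exchanged. The labels mention 3 mother and daughter pairs but do not say that animals sharing an array are such a pair, and RNA passed through 2 rounds of linear amplification before labelling.

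Polyamines are small, positively charged molecules that bind nucleic acids and that growing cells need. Ornithine decarboxylase, encoded by ODC1, makes putrescine from ornithine and is the rate-limiting step, and in the rat ovary LH is known to raise its activity. The pathway is controlled by a feedback loop: polyamines promote a ribosomal frameshift on antizyme mRNA, the antizyme (OAZ1, OAZ2) then binds ornithine decarboxylase and takes it to the proteasome without ubiquitin, and antizyme inhibitor (AZIN1), an inactive relative of the decarboxylase, binds antizyme and frees the enzyme. An array measures mRNA and says nothing of frameshifting, so the amount of antizyme protein was not measured.

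Levels and ratios are the values used below. A level is the log2 normalised signal of 1 probe in 1 animal, the mean over both dyes, with the distance of each dye orientation from that mean as its technical spread. Negative control spots had a median level of 7.19, and levels of different probes cannot be compared. A ratio is log2 of aged over young within a pair, so that 1 is a 2-fold higher signal in the aged cow. The precision of each mean is limited by the number of pairs, 3. Over all 20787 probes above background, 0 passed an adjusted p of 0.05 in limma with Benjamini-Hochberg adjustment (the smallest was 0.436), 0% of those tested, while 2317 (11.1%) had an unadjusted p under 0.05.

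The libraries differed in their cell markers. Of 15 epithelial markers, 10 were above background, with median ratios of -3.65, -3.33 and 0.09 in pairs 13, 110 and 126, and a log2 summed level of 12.04 to 13.95 in the aged and 13.59 to 17.03 in the young animals. The epithelial adhesion gene EPCAM was at 14.99 in young 11, 12.98 in young 7, and between 6.87 and 9.56 in the other 4, while CDH1 exceeded the background limit in 2 of 12 channels. Of 14 granulosa markers, 10 were above background, with medians of 4.74, 0.86 and 0.01 and summed levels of 16.88 to 17.42 in the aged and 12.18 (young 11) to 17.09 in the young animals. The inhibin subunit INHA was at 9.42 in young 11 and between 14.82 and 15.22 in the other 5, but the dye orientations of pair 13 disagreed in size, at ratios of 8.96 and 2.51. So did those of INHBA, at 9.32 and 2.38, and SERPINE2, at 7.81 and 2.19. The technical spreads of INHA, INHBA and SERPINE2 in young 11 were 3.17, 3.40 and 2.70. STAR, which carries cholesterol into mitochondria for steroid synthesis, was at 8.05 in young 11 with a technical spread of 0.32. Its ratios were 4.35 in pair 13, 2.12 and 1.89 on the arrays of pair 110, and 1.74 in pair 126. The other granulosa markers above background had both signs in pair 126, among them GATA4 at -0.85 and CYP11A1 at 1.06. They had both signs in pair 110 too, among them INHBA at -4.02 and PTX3 at 6.57. In all 3 pairs 3 of the 10 (STAR, HSD3B1 and PTX3) were higher and 0 lower in the aged cow, beside 21.7% and 16.8% of all 9014 genes. HSD3B1 and PTX3 exceeded the limit in 6 of 6 aged but 5 of 6 young channels. Both were thus kept only through the group where they were higher. The granulosa transcription factor FOXL2 exceeded the limit in 1 aged and 0 young channels. Of 12 leukocyte markers, 7 were above background, with medians of -0.51, -0.29 and 1.43 and summed levels of 11.31 to 14.88 (aged 126) in the aged and 11.79 to 13.32 in the young animals. Of 4 erythrocyte markers 2 were above background, with medians of -2.23, -1.01 and -0.82 and summed levels of 9.37 to 11.51 in the aged and 10.40 to 12.70 in the young animals, and the globin gene HBB had ratios of -1.48 in pair 13, -2.35 and -1.65 on the arrays of pair 110, and -1.40 in pair 126. Of 5 theca markers 4 were above background, with medians of -1.03, -0.36 and -0.53 and summed levels of 11.34 to 12.99 and 11.74 to 13.26. The erythrocyte and theca medians were thus below 0 in all 3 pairs, as were the endothelial medians, at -0.08, -0.09 and -0.29. The granulosa medians were above 0 in all 3 pairs, but only at 0.01 in pair 126. The theca genes disagreed among themselves. In all 3 pairs 0 of the 4 were higher and 2 (INSL3 and NR2F2) lower, beside 21.7% and 16.8% of all 9014 genes. The arrays of NR2F2 disagreed in sign in pair 126, at 0.20 and -1.39. PTCH1 had 1.10, 3.71 and -0.72 in pairs 13, 110 and 126, and ALDH1A1 had -5.13, -5.35 and 0.51. The part of these differences in the members' ratios was not tested, and in such bulk RNA fewer cells of a type and less RNA per cell cannot be told apart. Pair 126 is the pair whose epithelial and granulosa medians lay nearest 0 and whose leukocyte median lay farthest from 0. The value of that pair is therefore given for each member. Per the scan names the 4 arrays of pairs 13 and 110 were on 1 slide and the 2 arrays of pair 126 on 2 others, so slide and pair cannot be told apart, and the ratios of the dye-swapped arrays correlated across probes at 0.835, 0.827 and 0.592 in pairs 13, 110 and 126.

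OAZ1, antizyme 1, was the regulator with the most even ratio. Its level was 13.39 in aged 13, 13.34 in aged 110 and 13.69 in aged 126, and 11.72 in young 11, 12.20 in young 7 and 12.62 in young 184. The aged and young groups did not overlap: aged 13 lay within its technical spread of each aged neighbour in the order, aged 126 and aged 110 differed by more than theirs, and the lowest aged cow lay 0.73 above the highest heifer, beyond the spread of 0.09. The ratios were 1.68, 1.14 and 1.07 in pairs 13, 110 and 126, that is 3.20-fold, 2.21-fold and 2.10-fold, with a mean of 1.30 ± 0.33 (SD, n = 3 pairs). The array ratios were 1.54 and 1.81 in pair 13, 1.17 and 1.11 in pair 110, and 0.87 and 1.27 in pair 126, the first of each with the aged cow in Cy5, so both dye orientations gave the same sign in each pair, as all 6 arrays did, higher in the aged cow, in 1084 of 9014 genes (12.0%). The signal was far from background, between 10.4 and 73.6 times the limit in the 12 channels.

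In pair 126 OAZ1 was 2.10-fold higher in the aged cow, and the epithelial, granulosa, leukocyte, erythrocyte and theca medians were 0.09, 0.01, 1.43, -0.82 and -0.53. The leukocyte markers above background did not move together. TYROBP was at a ratio of 3.29 in that pair, against -0.90 and -1.01 in pairs 13 and 110. PTPRC was at -0.34 in that pair, with -0.51 and -1.28 in pairs 13 and 110. Of the 7 such markers, 2 (CD163 and AIF1) were higher and 1 (PTPRC) was lower in the aged cow in all 3 pairs, beside 21.7% and 16.8% of all genes. CD163 exceeded the limit in 6 of 6 aged but 4 of 6 young channels, and AIF1 in 6 of 6 and 5 of 6. Both were thus kept only through the group where they were higher. Among the 9014 genes, 1953 (21.7%) were higher in the aged cow in all 3 pairs and 15 (0.166%) were at least 2-fold higher in all 3. OAZ1 ranked 290 of 9014 by its mean ratio and 12 by its lowest pair ratio. It was also 1 of 1040 genes (11.5%) whose level was higher in all 3 aged cows than in all 3 heifers. These shares are the background for a gene that was chosen for this ratio, and nothing is read from them.

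**Figure D1:**
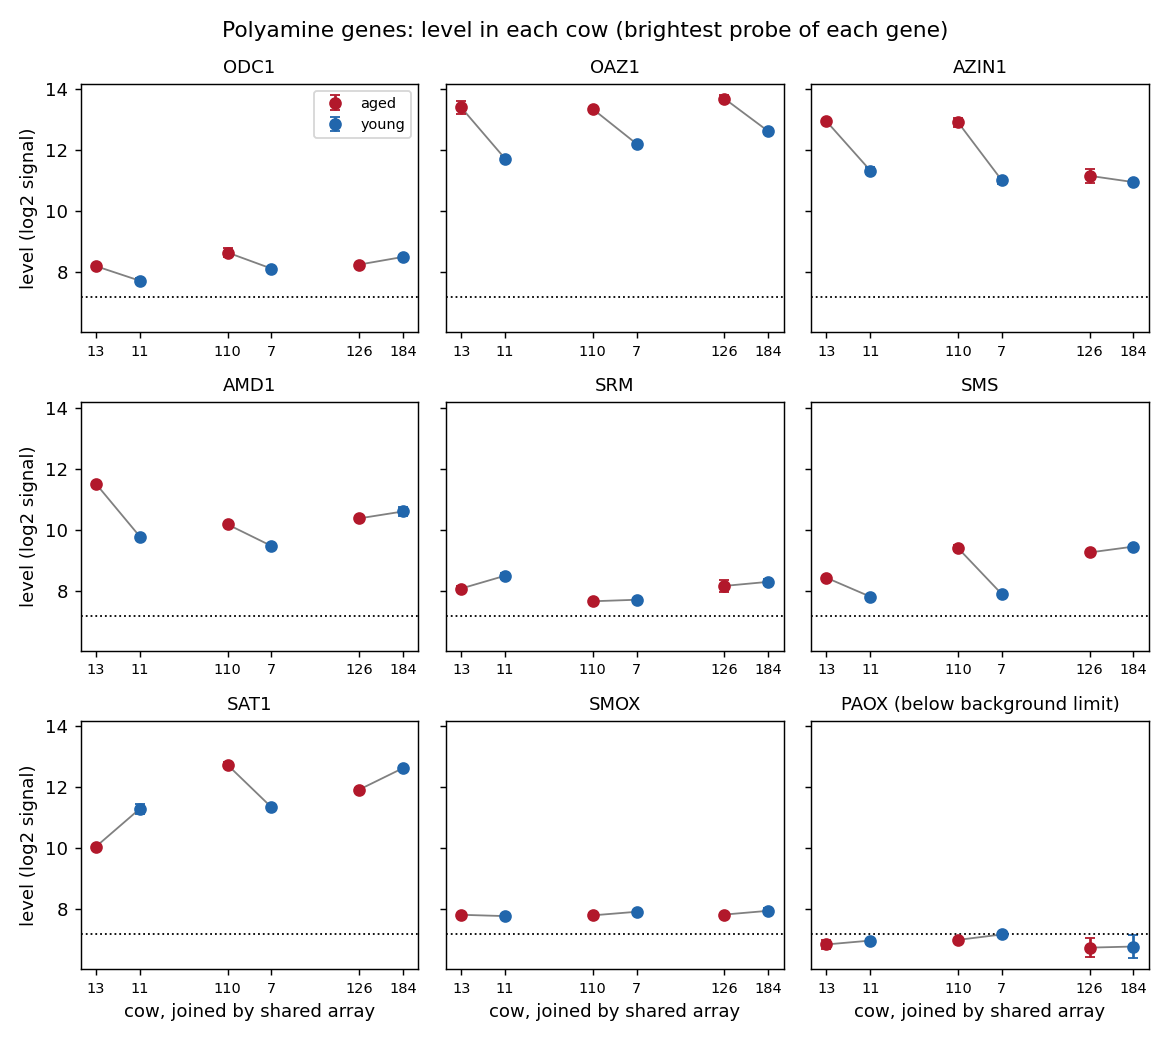
Levels (log2 normalised signal) of the members' representative probes in each animal, with bars reaching to the value of each dye orientation, lines joining the animals of a pair, and a dotted line at the median level of the negative control spots, 7.19. For OAZ1 the 3 aged cows lie at 13.34 to 13.69 and the 3 heifers at 11.72 to 12.62, while the groups of the other members above background overlap.

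AZIN1, the antizyme inhibitor that counteracts OAZ1 at the protein level, had 3 probes above background. On the brightest its level was 12.94 in aged 13, 12.91 in aged 110 and 11.15 in aged 126, and 11.33 in young 11, 11.00 in young 7 and 10.95 in young 184. Aged 13 and aged 110 stood 1.58 above the next animal, beyond the technical spread, and in the order of the other 4 animals each lay within the spread of its neighbour. The ratios were 1.61, 1.90 and 0.21, mean 1.24 ± 0.91 (SD, n = 3 pairs), and in pair 126 the arrays gave 0.50 and -0.08, which disagree in sign.

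The second AZIN1 probe gave ratios of 1.92, 2.09 and -0.29, mean 1.24 ± 1.33. The third, at only 1.06 to 1.80 times the background limit, gave 0.60, 0.54 and 0.09, mean 0.41 ± 0.28, with all 3 aged cows (7.99 to 8.37) above all 3 heifers (7.69 to 7.89). The probes therefore share a higher signal in the aged cow in pairs 13 and 110, and differ in sign in pair 126. Over 1848 genes with at least 2 probes above background, the range of mean ratios between probes had a median of 0.36 and an upper quartile of 0.67, and among the 3 AZIN1 probes the means were 1.24, 1.24 and 0.41.

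Antizyme and its inhibitor thus had mean ratios of similar size, both at least 2-fold as in 1071 of 9014 genes (11.9%), with SDs over pairs of 0.33 and 0.91. The AZIN1 ratio less the OAZ1 ratio was -0.06 in pair 13, 0.76 in pair 110 and -0.86 in pair 126. The sign of that difference depended on the pair. With median centring in place of loess the AZIN1 ratio in pair 126 was 0.96 and that of OAZ1 was 1.78, while the median of all kept genes in that pair was 0.34. A ratio above 1 in pairs 13 and 110 with one within 0.3 of 0 in pair 126, the pattern of the brightest AZIN1 probe, was found in 267 of 9014 genes (2.96%). In pairs 13 and 110 the epithelial medians were -3.65 and -3.33 and the granulosa medians 4.74 and 0.86, and their part in the AZIN1 ratios was not tested.

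**Figure D2:**
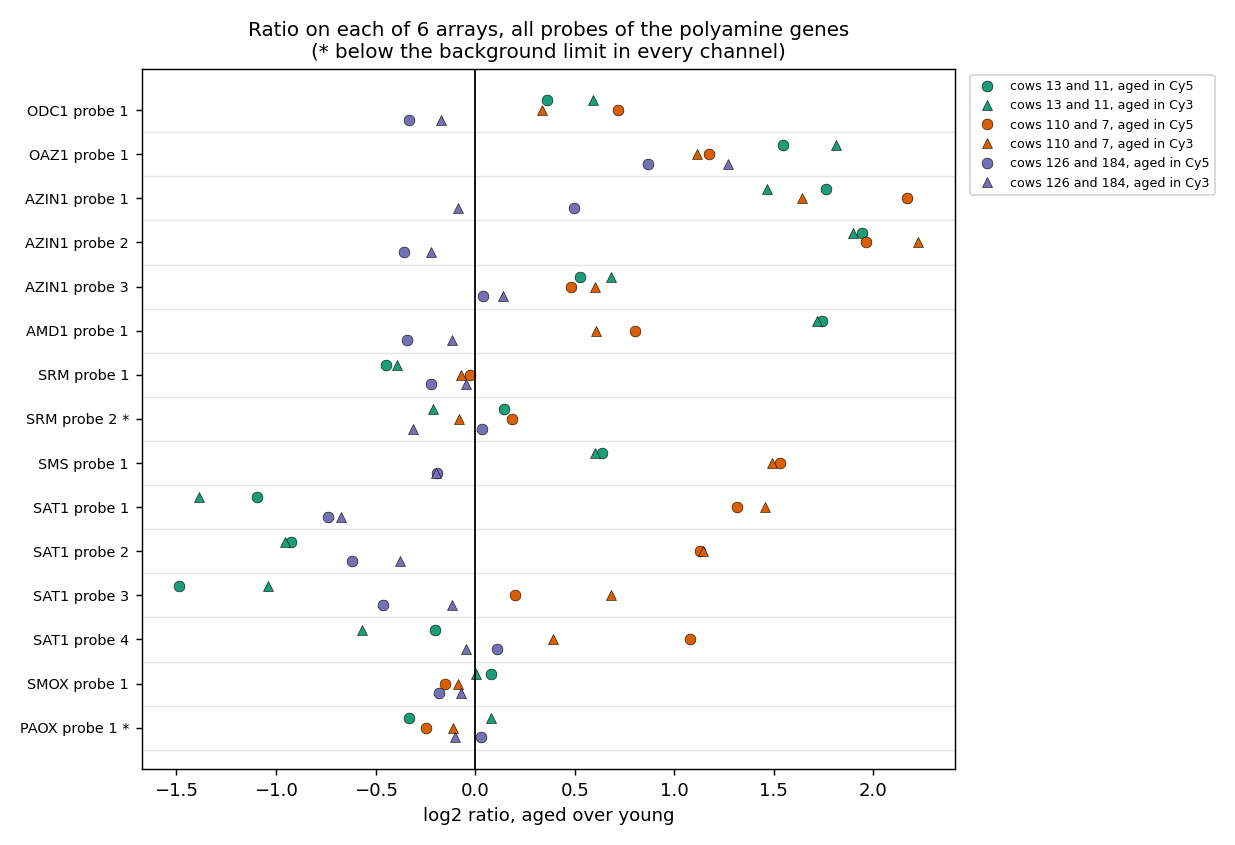
Ratios (log2 aged over young) of the members' 15 probes on each of the 6 arrays, with a colour for each pair, circles where the aged cow was in Cy5, triangles where it was in Cy3, and a line at 0. OAZ1 lies between 0.87 and 1.81 on all 6 arrays, and the brightest SAT1 probe lies on both sides of 0.

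ODC1, the target of antizyme and the enzyme that makes putrescine, was dim on this array, at 1.09 to 1.97 times the background limit. Its level was 8.19 in aged 13, 8.64 in aged 110 and 8.24 in aged 126, and 7.71 in young 11, 8.11 in young 7 and 8.49 in young 184. The groups overlapped, with young 184 second highest and within the technical spread of aged 110. The ratios were 0.48, 0.53 and -0.25, mean 0.25 ± 0.44 (SD, n = 3 pairs), and in pair 126 the heifer had the higher signal. The ODC1 ratio was below the OAZ1 ratio in all 3 pairs, by 1.20, 0.62 and 1.32 on the log2 scale (mean difference of ODC1 minus OAZ1 -1.05 ± 0.38). Signals this close to background compress a ratio, so the difference is one of measured signal.

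AMD1 encodes S-adenosylmethionine decarboxylase, which makes the aminopropyl donor that both synthases use. Its level was 11.50 in aged 13, 10.17 in aged 110 and 10.37 in aged 126, and 9.78 in young 11, 9.47 in young 7 and 10.60 in young 184. Aged 13 stood 0.91 above the next animal, which was the heifer 184, and the groups overlapped. The ratios were 1.73, 0.71 and -0.23, mean 0.74 ± 0.98 (SD, n = 3 pairs), so the sign in pair 126 was opposite to that in the other 2 pairs, but with median centring the pair 126 ratio was 0.51, above 0 like the others.

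SMS, spermine synthase, makes spermine from spermidine. Its level was 8.42, 9.40 and 9.25 in aged 13, 110 and 126, and 7.80, 7.89 and 9.45 in young 11, 7 and 184. The animals fell apart by pair as much as by age, since young 184 was highest and within the spread of aged 110, while young 11 and 7 were lowest. The ratios were 0.62, 1.51 and -0.19, mean 0.65 ± 0.85 (SD, n = 3 pairs). The probe exceeded the background limit in 6 of 6 aged but 5 of 6 young channels. SMS was thus kept only through the aged channels, where its mean signal was higher. With median centring the SMS ratio in pair 126 was 0.40, of the opposite sign.

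SRM, spermidine synthase, makes spermidine from putrescine and was the only member above background with a representative probe lower in the aged cow in every pair. Its level was 8.07, 7.65 and 8.16 in aged 13, 110 and 126, and 8.49, 7.70 and 8.29 in young 11, 7 and 184. The groups overlapped, and within pairs 110 and 126 the animals lay within the technical spread of one another. The ratios were -0.42, -0.05 and -0.13, mean -0.20 ± 0.19 (SD, n = 3 pairs), below 0 on 6 of 6 arrays (588 of 9014 genes, 6.52%), at 1.05 to 1.88 times the background limit. The second SRM probe exceeded the limit in 0 of 12 channels and was left out. Of all 9014 genes, 1512 (16.8%) were lower in the aged cow in all 3 pairs.

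Of the 4 synthesis genes, ODC1, AMD1 and SMS had a ratio above 0 in pairs 13 and 110 and between -0.25 and -0.19 in pair 126, while SRM was below 0 in all 3 pairs. The signs of the former were shared by 1544 of 9014 genes (17.1%), and with median centring only ODC1 kept them, at -0.07 in pair 126. The marker values of these pairs are given above, and their part in the ratios was not tested. OAZ1 was the only member above background with a ratio over 1 in pair 126.

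SAT1 encodes spermidine/spermine acetyltransferase, which acetylates polyamines for export or oxidation, and it was the member that varied most among animals. Its brightest probe was at 10.06 in aged 13, 12.74 in aged 110 and 11.93 in aged 126, and at 11.30 in young 11, 11.35 in young 7 and 12.63 in young 184. Aged cows held both ends of the order: aged 110 was highest, within the spread of young 184, and aged 13 was lowest, 1.24 below the next animal and beyond the spread of 0.18. The range of 2.68 between animals was 6.41-fold and lay at the 89.2 percentile of the 9014 genes. Of these genes 1863 (20.7%) differed at least 4-fold between some animals, AMD1 with a range of 2.04 among them.

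The SAT1 ratios were -1.24, 1.39 and -0.70 in pairs 13, 110 and 126, mean -0.19 ± 1.39 (SD, n = 3 pairs). Pairs 13 and 110 thus went at least 2-fold in opposite directions, as did some 2 pairs in 424 of 9014 genes (4.70%). The other 3 probes gave -0.94, 1.14 and -0.50, then -1.26, 0.44 and -0.29, then -0.39, 0.74 and 0.03. On all 4 probes aged 13 was lowest, the ratio was below 0 in pair 13 and it was above 0 in pair 110. With median centring the ratio of the brightest probe in pair 126 was 0.04. The epithelial medians in pairs 13 and 110 were -3.65 and -3.33 and the granulosa medians 4.74 and 0.86, and their part in the SAT1 ratios was not tested.

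**Figure D3:**
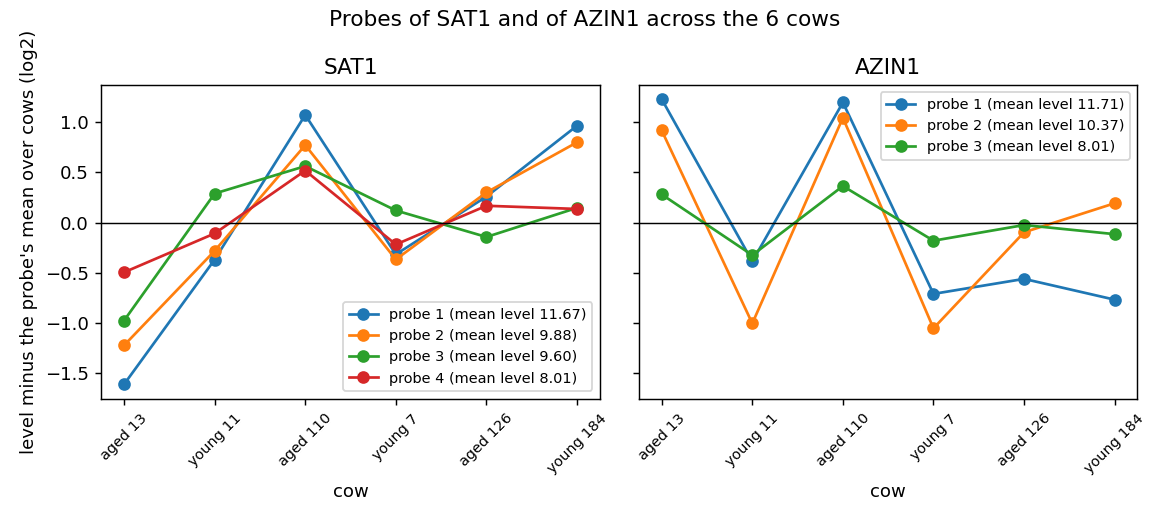
Level of each SAT1 probe and each AZIN1 probe in the 6 animals, as the difference from that probe's mean over animals (log2), with 1 line for each probe. All 4 SAT1 probes are lowest in aged 13, and the 3 AZIN1 probes are highest in aged 13 and aged 110.

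The polyamine oxidases gave little signal. SMOX, spermine oxidase, which turns spermine back to spermidine, was at 7.78 to 7.95 in the 6 animals, 1.08 to 1.26 times the background limit, with ratios of 0.04, -0.12 and -0.12 and a mean of -0.07 ± 0.09 (SD, n = 3 pairs). Its range over animals, 0.17, lay at the 2.50 percentile of the 9014 genes. A signal near the background limit can narrow a range, which was not tested here. ODC1 and SRM, also dim, had ranges of 0.93 and 0.84. PAOX, the oxidase of acetylated polyamines, exceeded the limit in 0 of 12 channels, at 0.58 to 0.91 times it, so it was not well above background and no ratio is given.

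Of the 8 members above background, 3 had ratios of 1 sign in all 3 pairs, OAZ1 and AZIN1 higher and SRM lower in the aged cow. Over all 9014 genes, 3465 (38.4%) did so. The median ratio of the 8 members was 0.45, and 0.55, 0.93 and -0.16 in pairs 13, 110 and 126, beside 0.08 over all 9014 genes and 0.03, 0.05 and 0.03 by pair. SMS is among the 8 and was kept only through the aged channels. Both dye orientations gave the same sign in 37 of 39 pair values of the members' 13 probes (94.9%), against 41439 of 62167 over all probes above background (66.7%).

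The arginine and ornithine genes act in the metabolism around the pathway's precursor, and 7 of 14 were above background, with a median ratio of 0.01. In all 3 pairs 1 (NOS3) was higher and 0 were lower, beside 21.7% and 16.8% of all 9014 genes. NOS3 exceeded the limit in 6 of 6 aged but 4 of 6 young channels, so it was kept only through the group where it was higher. Its arrays in pair 13 gave 0.80 and -0.47, which disagree in sign. OAT, the mitochondrial aminotransferase that links ornithine to proline and glutamate, had ratios of 2.99, 1.02 and -0.08 (mean 1.31 ± 1.56). PYCR1, which makes proline, had -2.43, -0.78 and 0.16 (mean -1.02 ± 1.31). ARG1, arginase, was at 12.91 in young 7 and at 7.32 to 8.39 in the other 5 animals, so its mean ratio of -1.77 ± 3.17 rests on 1 heifer, with -0.33, -5.41 and 0.43 by pair. ARG2 was not above background, with a mean ratio of 0.16 ± 0.65. None of these genes passed the adjusted test.

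Of 18 relatives, transporters and regulators of the pathway, 14 had a probe and 6 were above background, with a median of -0.21. In all 3 pairs 1 was higher (PSMA1) and 1 lower (ATP13A2), beside 21.7% and 16.8% of all 9014 genes. The arrays of both disagreed in sign in pair 126, at 0.06 and -0.06 for PSMA1 and -0.39 and 0.27 for ATP13A2. SAT2, a relative of SAT1, had ratios of 1.89, 2.61 and -0.77 (mean 1.24 ± 1.78). ATP13A2, a lysosomal polyamine exporter, had -1.87, -2.91 and -0.06 (mean -1.61 ± 1.44). MYC, a transcription factor known to drive ODC1, had -2.24, -0.29 and 1.04 (mean -0.49 ± 1.65). In SAT2 and ATP13A2 too, pairs 13 and 110 had ratios over 1 in size and of 1 sign, and pair 126 was smaller in size.

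Spermidine is also the substrate that turns a lysine of the translation factor eIF5A into hypusine. DHPS, the first enzyme of that step, had ratios of 0.26, 0.54 and 0.51, mean 0.44 ± 0.15 (SD, n = 3 pairs). It was above 0 on 6 of 6 arrays, as were 1084 of 9014 genes (12.0%). Its levels of 7.34 to 8.08 were near the negative controls, and it exceeded the limit in 6 of 6 aged but 4 of 6 young channels. The probe was thus kept only through the aged channels, where its signal was higher. A second DHPS probe, not above background, had a mean of -0.09. EIF5A had 0.38, 0.27 and -0.02 (mean 0.21 ± 0.21), and DOHH, the second enzyme, was not above background, at a mean of 0.18 ± 0.11. Of the 4 genes on that list 2 were above background, with 1 higher (DHPS) and 0 lower in all 3 pairs, beside 21.7% and 16.8% of all 9014 genes. None passed the adjusted test.

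The methionine cycle supplies the S-adenosylmethionine that AMD1 uses, and 11 of 15 such genes were above background. In all 3 pairs 1 was higher (AHCYL1) and 2 lower (APIP, GNMT), beside 21.7% and 16.8% of all 9014 genes. The arrays of AHCYL1 disagreed in sign in pair 13, and those of APIP in pairs 110 and 126. MAT2A, which makes S-adenosylmethionine, had ratios of 1.68, 2.07 and -0.01 on its brightest probe (mean 1.25 ± 1.10), but its other probes above background had means of 0.51, -0.05 and -0.02. AHCYL2, a relative of the enzyme that clears S-adenosylhomocysteine, had 1.91 and 2.56 in pairs 13 and 110 and was lower in the aged cow in pair 126, at -1.29 and -0.71 on its arrays (mean 1.16 ± 1.90). GNMT, glycine N-methyltransferase, singled out after its values were seen, had -0.29, -0.37 and -0.38 (mean -0.35 ± 0.05). Its spread over pairs was small, and its probe did not pass the adjusted test. MTAP and OAZ3 have no named probe on the array and were not analysed here.

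**Figure D4:**
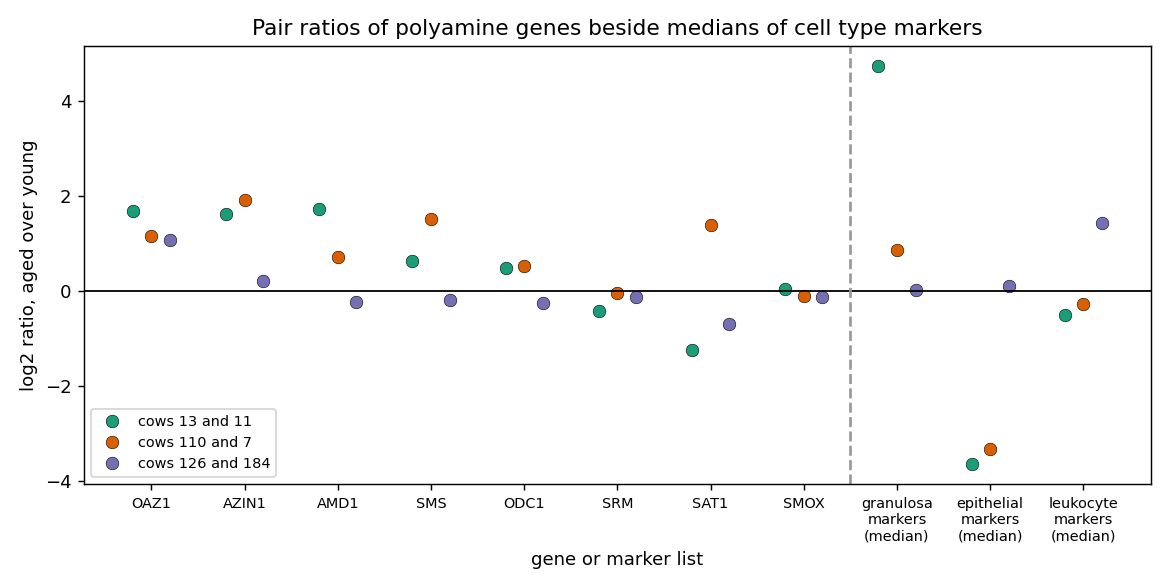
Ratios (log2 aged over young) by pair for the members above background (left of the dashed line), beside the median ratios of the granulosa, epithelial and leukocyte marker lists, with a colour for each pair. Pair 126 has epithelial, granulosa and leukocyte medians of 0.09, 0.01 and 1.43 and an OAZ1 ratio of 1.07. ODC1, AMD1 and SMS lie between -0.25 and -0.19 in that pair.

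Other genes followed the members across the 6 animals. The measure was Pearson's r of levels over 6 animals, among genes whose SD over animals was not far below that of the member, and such r values describe 6 points that share arrays in pairs. The 5 genes most like OAZ1, of 4688, were CUL2 (r = 0.976), APEX1 (0.976), LEPROTL1 (0.970), NUP153 (0.966) and PITPNA (0.966), and for APEX1 and PITPNA the order of the 6 animals was the same as for OAZ1. Those most like SAT1, of 3542, were CSRP2 (0.961), AVPI1 (0.943), CACNB3 (0.942), S100A10 (0.936) and TM4SF1 (0.931). Those most like AMD1, of 5052, were PDCL3 (0.994), LONP1 (0.990), VCAN (0.978), HADHB (0.976) and MRPL42 (0.974). None of the 15 genes stood on more than 1 of these lists, and no member was among them.

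The members' ratios kept their order of size only in part under other processing of the arrays. The OAZ1 mean lay between 1.11 and 1.64 in every setting tried and was above 0 in every pair. The SAT1 mean changed sign with the setting: it was 0.21 with median centring in place of loess, 0.34 without pair 13, -0.97 without pair 110 and 0.07 without pair 126. For AMD1 the mean was 0.24 without pair 13, and for SMS it was 0.21 without pair 110. The ODC1 mean was 0.14 without pair 13, 0.11 without pair 110 and 0.50 without pair 126. Without pair 126 the AZIN1 mean was 1.76, the AMD1 mean 1.22 and the SMS mean 1.07. The size of the AMD1 and SMS means thus depended on more than 1 pair.

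**Figure D5:**
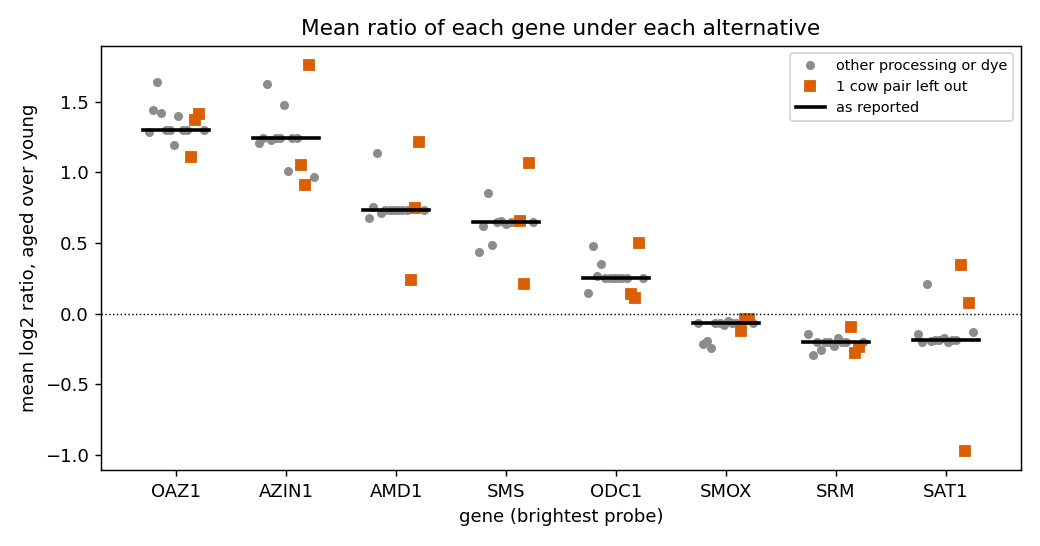
Mean ratios (log2 aged over young) of the members under each way of processing the arrays and with each pair left out, with a line at the value reported, grey points for other processing and squares for the means without 1 pair. OAZ1 spans 1.11 to 1.64 and stays above 0 throughout, and SAT1 lies on both sides of 0, from -0.97 to 0.34.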

How the data were processed

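Granulosa cell RNA of 6 animals was compared on 6 arrays of 45220 spots. The deposited scanner files hold linear spot and background intensities, not normalised, and another column that marks ignored spots (42 to 113 per array), per the file headers. The authors also deposited processed log2 ratios, made with limma (version not given) per the submitters' processing notes. Set against the scanner values, all 6 columns of that table ran as aged over young (r 0.834 to 0.950 over probes, medians -0.0092 to 0.0036), and its background correction and filter stay unknown. There were 0 columns of other samples.

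Here, in limma 3.58.1 (R 4.3.3), spot means were corrected by normexp with an offset of 50 against local background medians and normalised by loess within arrays, with control and ignored spots at weight 0. Ratios were turned to aged over young and averaged within each pair of dye-swapped arrays, then fitted with lmFit and eBayes over the 3 pairs, two-sided, adjusted over all kept probes. The pair enters by construction, since both animals of a pair share an array. Levels took a further scaling between arrays (Aquantile). A probe was kept when above the mean + 2 SD of the negative controls on every array in the aged channels, the young channels or both, which kept 20787. An ignored control spot of 1427 units was left out of that limit. The share of probes above it was 49.4% to 71.8% per channel. Ratios were tested on simulated data first.

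A gene was represented by its brightest probe. Probes were named by the platform annotation (21790 with 1 symbol, 0 with several, 22004 with none), and no coordinates or sequences are given because no build is named. Members and gene lists were chosen with earlier results of these data known. Related genes are named at a mean ratio of at least 1 in size, or at least 0.5 with 1 sign on 6 arrays, or by a fixed list; genes like a member are the 5 with the highest r, with an SD at least 0.5 times that of the member. The labels do not say whether an animal's arrays came from 1 RNA preparation. Alternatives were no background correction, spot medians, median centring, the authors' values, other filters, the replicate block, a slide block and leaving out each pair.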

Additional observations from a re-analysis of the deposited data

How the results depend on the processing

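The count of probes past the adjusted threshold was 0 on the 3 pairs and 0 with the replicate block and a dye term over 6 arrays, where 3080 had an unadjusted p under 0.05. With no replicate block, so that both arrays of a pair counted as separate samples, it was 376 (324 higher, 52 lower in aged). The pairs come from shared arrays (correlation within pairs 0.815). With slide as a block over 6 arrays, added after seeing the data, it was 0; the slide block on 3 pair values could not be fitted. Members with 1 sign in all pairs numbered 3, but 5 with median centring, and 4 to 6 with each pair left out in turn, where fewer pairs need to share a sign. The count was 2 with the aged cows in Cy3 only and with no replicate block, and 3 or 4 in the other settings. With median centring AMD1 and SMS were above 0 in pair 126 too, at 0.51 and 0.40. The mean SAT1 ratio of -0.19 changed sign to 0.21 with median centring, and lay between -0.97 and 0.34 with pairs left out. Median centring moved the median of kept genes from 0.08 to 0.18 (to 0.34 in pair 126), and less that median OAZ1 was at 1.45 against 1.22, and SAT1 at 0.03 against -0.26. It also moved the share of higher among genes of 1 sign to 63.1% from 56.4%. The authors' values gave a mean OAZ1 ratio of 1.42. The other members kept their sign in each setting (AZIN1 0.91 to 1.76, SRM -0.29 to -0.09, SMOX -0.24 to -0.04). The dim signals of ODC1, SRM and SMOX limit what their ratios can show.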
